A study of Arabidopsis thaliana with 12 samples.

Results

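Poly(A) RNA was sequenced from 12 pools of whole Arabidopsis thaliana seedlings, and the 9 libraries from plants given a long-chain acyl-CoA were set together against the 3 from plants given the vehicle. An acyl-CoA is a fatty acid held by a thioester bond on coenzyme A, the activated form in which cells elongate, desaturate, esterify or oxidise it. All plants were wild type, 14 days old and grown in liquid medium with sucrose, and each pool held 80 plants, at stage 1.04 of the BBCH growth scale. The treated groups received C18:0 CoA (stearoyl-CoA, saturated), C18:1 CoA (oleoyl-CoA, with 1 double bond) or C16:0 CoA (palmitoyl-CoA, saturated and shorter), each at 0.1% for 90 min, dissolved with 0.01% of the mild detergent Pluronic F68. The control group received 0.01% Pluronic F68 alone, so every plant had the detergent. Each group had 3 libraries, which the series text calls biological replicates, and each compound carried equal weight in the pooled contrast. All compounds were given at 1 dose and 1 time.

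Plants that run short of oxygen switch from respiration to ethanol fermentation, and a small set of core genes is switched on in nearly every organ. Group VII ethylene response factors (ERF-VII), such as RAP2.12, drive these genes. In air their N-terminal cysteine is oxidised by plant cysteine oxidases (PCO) and the proteins are degraded, while part of the RAP2.12 pool is held at the plasma membrane by the acyl-CoA-binding proteins ACBP1 and ACBP2. The study is known to have asked whether acyl-CoAs, and oleoyl-CoA above all, act on this switch in plants that have oxygen. The pooled contrast asks what the 3 compounds have in common.

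The depth ranged from 348140 to 6126277 exon reads a library. The shallowest was C18:1 CoA replicate 1, followed by the second replicates of C18:0 CoA (602649 reads) and C16:0 CoA (640605 reads), so all 3 libraries under 1000000 reads were treated ones. Control libraries were deeper, with a median of 4830909 reads against 2170631 in treated ones and a log2 depth difference of 1.07. That difference did not pass the threshold (exact two-sided permutation test over 220 arrangements, p = 0.245, the smallest possible being 0.00455). With so few libraries this does not show that depth was equal. The gene length pattern moved with the contrast: the shortest sixth of the genes had a median log2 fold change of 0.16 and the longest sixth one of -0.13. Control libraries lay in lanes 1, 2 and 3, each beside 1 treated library, and carried 1 of the 2 i7 index sequences, which 5 of the 9 treated libraries shared. Shoot and root marker genes were both present in every library. The seed storage gene CRA1 had 5 reads in all control libraries and 85 in all treated ones, 66 of them in 1 library. CRC, another seed storage gene, had 13 and 82. Together these genes had 4, 7 and 7 reads in the control libraries and 20, 13 and 121 with C18:0 CoA. With C18:1 CoA they had 3, 0 and 0 reads and with C16:0 CoA 10, 0 and 0. Of the flower genes AP1 had 3 and 0 reads in control and treated libraries, AP3 3 and 16, PI 6 and 10, AG 2 and 4 and SEP3 76 and 87.

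No gene passed the pooled test. Of 17036 genes tested by edgeR's quasi-likelihood test with Benjamini-Hochberg adjustment, 0 were higher (0.0%) and 0 lower (0.0%) with the acyl-CoAs, and the smallest adjusted p was 0.9997. At an unadjusted p under 0.05, 424 genes differed (2.49%), 228 of them higher (1.34%) and 196 lower (1.15%), where 852 would be expected by chance alone. With single libraries left out the higher genes numbered 150 (without control replicate 1) to 369 (without C16:0 CoA replicate 1). The lower genes numbered 109 (without control replicate 2) to 322 (without C16:0 CoA replicate 2), with 121 without control replicate 3. Without the 3 shallow libraries 429 were higher and 604 lower, so which direction held more genes depended on the libraries used. DESeq2 also called 0 genes (395 at an unadjusted p under 0.05), and limma voom called 0 (713 unadjusted). A log2 fold change over 1 was seen for 65 genes (0.382%) and under -1 for 41 genes (0.241%). In 81 genes (0.475%) all 9 treated libraries lay above all 3 control libraries in CPM, counts per 1000000 reads on TMM-scaled library sizes, and in 74 genes (0.434%) all 9 lay below. With the 6 treated libraries over 1000000 reads alone, 240 genes (1.41%) lay above and 233 (1.37%) below. Intron reads, a second readout of the same libraries, gave 1204 testable genes, 0 past the test by edgeR (0.0%), 9 higher (0.748%) and 14 lower (1.16%) at an unadjusted p under 0.05. All single-gene values below are therefore differences that did not pass the test over all genes, and "higher" or "lower" in what follows is a description of these libraries. Values after ± are SE, and a 95% interval that includes 0 is given where a hallmark gene missed an unadjusted p of 0.05.

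Genes of the low-oxygen core stood higher in the treated plants, with the highest median of the lists that had at least 6 measured genes. Of 51 listed genes 49 were measured, 43 had a positive log2 fold change and 27 (55.1%) were higher at an unadjusted p under 0.05, against 1.34% of all genes. None was lower at that p. The median log2 fold change was 0.60, beside -0.00 over all genes tested. In 6 of the 49 (12.2%, against 0.475% of all genes) all 9 treated libraries lay above all 3 control libraries. The list was written with earlier results of these data known, so these counts describe the libraries and are not independent evidence.

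**Figure D1:**
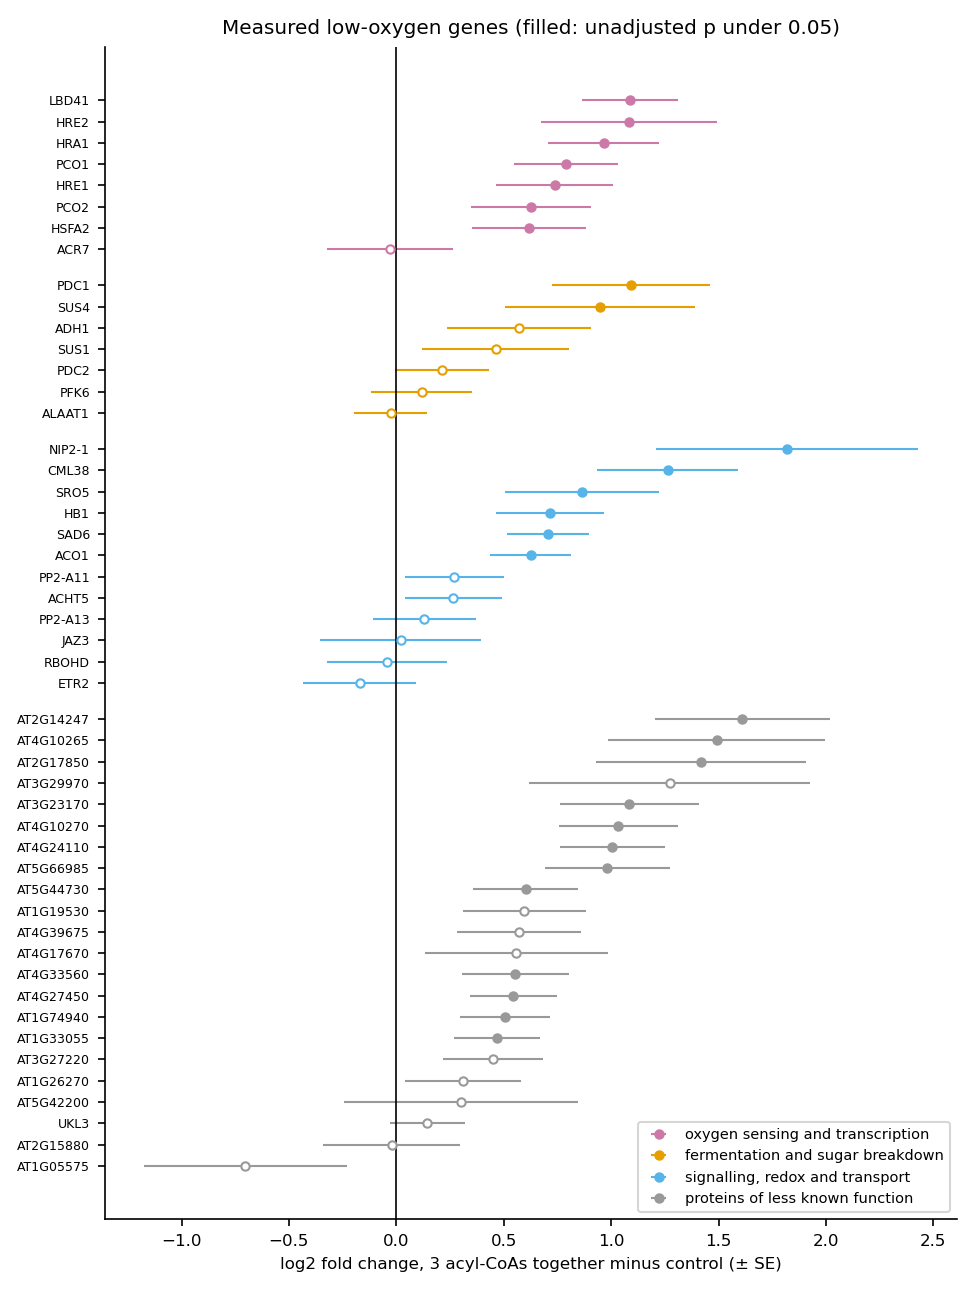
Log2 fold change of the 49 measured low-oxygen genes, the 3 acyl-CoAs together minus control, by role; bars are ± SE and filled points have an unadjusted p under 0.05. 43 of the 49 points lie right of 0 and 27 are filled, 7 of them among the 8 sensing and transcription genes.

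The promoters of low-oxygen genes were searched because these genes stood higher together. Among the motifs searched, on both strands of the 250 bases before the RefSeq start, were AAACCA, an anaerobic motif, and GCCGCC, the box bound by ethylene response factors. The promoters of 4 genes are shown with AAACCA and GCCGCC (or their reverse complements) in capitals: PDC1 because it holds AAACCA 3 times, and the other 3 because they are the list members with an unadjusted p under 0.05 that hold GCCGCC. Sequences are from RefSeq, build TAIR10.1, read 5′ to 3′ along the gene; gene coordinates elsewhere in the text come from the authors' table, on TAIR10.
PDC1 (chr4:15954804-15955053, minus strand): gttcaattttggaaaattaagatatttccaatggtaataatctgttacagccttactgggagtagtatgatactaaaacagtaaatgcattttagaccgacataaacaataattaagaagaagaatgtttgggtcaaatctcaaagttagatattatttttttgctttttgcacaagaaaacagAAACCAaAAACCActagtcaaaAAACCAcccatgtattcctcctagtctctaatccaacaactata
HSFA2 (chr2:11135374-11135623, plus strand): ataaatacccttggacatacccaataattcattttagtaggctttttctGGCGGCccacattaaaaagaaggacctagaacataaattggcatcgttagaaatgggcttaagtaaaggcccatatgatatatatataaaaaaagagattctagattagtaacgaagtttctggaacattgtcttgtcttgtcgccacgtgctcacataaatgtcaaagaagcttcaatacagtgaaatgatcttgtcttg
AT4G33560 (chr4:16134907-16135156, plus strand): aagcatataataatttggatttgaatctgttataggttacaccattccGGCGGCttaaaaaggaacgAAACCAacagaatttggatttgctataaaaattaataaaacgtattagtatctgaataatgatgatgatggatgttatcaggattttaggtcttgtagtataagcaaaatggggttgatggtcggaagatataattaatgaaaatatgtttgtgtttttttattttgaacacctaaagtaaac
AT2G17850 (chr2:7760840-7761089, minus strand): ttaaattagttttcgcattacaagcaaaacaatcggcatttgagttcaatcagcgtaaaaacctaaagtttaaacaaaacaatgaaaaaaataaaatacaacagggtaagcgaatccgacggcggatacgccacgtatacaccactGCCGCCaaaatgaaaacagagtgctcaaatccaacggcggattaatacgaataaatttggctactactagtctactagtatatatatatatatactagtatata

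GCCGCC lay in 5 of the 49 low-oxygen promoters (10.2%), the other carriers being PDC2 and AT4G39675, and in 330 of 17021 promoters of all genes tested (1.94%). AAACCA lay in 16 of 49 (32.7%) against 4679 of 17021 (27.5%). HRPE, the hypoxia-responsive promoter element, was searched by a consensus from general knowledge. It lay in 0 of 49 against 5 of 17021 (0.029%), a background so low that a count of 0 is no result about the list. GAANNTTC, the heat shock element core, was in 8.16% against 9.27%, CGCGT, a calmodulin-binding activator motif, in 10.2% against 7.37%, and CACGTG, the G-box, in 14.3% against 7.30%. TTGACC or TTGACT, the W-box bound by WRKY factors, was in 28.6% against 28.1%, and AAATATCT, the evening element of clock-controlled genes, in 8.16% against 4.99%. These shares describe letters in a short window and say nothing of binding, and the choice of the low-oxygen list for this count was made after the values were seen. In the 81 genes whose treated libraries all lay above control GCCGCC was in 0 and CACGTG in 9 (11.1%), and in the 74 below they were in 2 (2.70%) and 4 (5.41%).

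Transcription and oxygen-sensing genes stood higher almost throughout in the pooled contrast. Of 8 measured, 7 were higher at an unadjusted p under 0.05 (1.34% of all genes) and the median was 0.76. With C18:0, C18:1 and C16:0 CoA the medians were 0.53, 0.64 and 1.13. At that p 3, 3 and 6 of 8 were higher (1.23%, 0.722% and 2.74% of all genes), and 2 differed among the compounds (1.91%). LBD41 (AT3G02550; chromosome 3, 536505 to 537998), a LOB-domain transcription factor gene, stood at 72.6, 70.6 and 57.2 CPM in control replicates 1 to 3, and in the 9 treated libraries its lowest, median and highest values were 93.3, 130 and 230 CPM. The groups did not overlap, with C18:0 CoA replicate 1 nearest to the controls. The log2 fold change was 1.09 ± 0.23 (SE, 95% interval 0.62 to 1.56), with the smallest p of all genes and still an edgeR adjusted p of 0.9997. In DESeq2 the adjusted p of LBD41 was 0.0509, which also missed the threshold of 0.05.

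HRA1 (AT3G10040; chromosome 3, 3096415 to 3098071), a trihelix factor that binds RAP2.12 and restrains it, was at 40.1, 30.0 and 33.2 CPM in the control and from 40.3 over a median of 62.2 to 116 CPM in treated libraries. All 9 were above the controls, but C18:0 CoA replicates 1 (40.4) and 2 (40.3) only just exceeded the highest control. The log2 fold change was 0.97 ± 0.26. PCO1 (AT5G15120), a plant cysteine oxidase, was at 45.0, 59.4 and 54.1 CPM against 55.1, 94.8 and 130 CPM (lowest, median, highest), with 7 of 9 treated libraries above the controls and a log2 fold change of 0.79 ± 0.24. PCO2 (AT5G39890), its paralog, was at 43.0, 52.7 and 41.7 CPM against 30.2, 64.9 and 109 CPM. The PCO2 groups overlapped, with 2 of the 3 shallow libraries below every control, and its log2 fold change was 0.63 ± 0.28.

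HRE1 (AT1G72360) and HRE2 (AT2G47520) encode ERF-VII factors that are themselves induced by low oxygen. HRE1 was at 37.6, 65.9 and 60.2 CPM in control libraries against 44.0, 99.0 and 146 CPM (lowest, median, highest) in treated libraries, 7 of them above the controls (0.74 ± 0.27). HRE2 was at 4.92, 5.48 and 3.86 CPM against 2.95, 11.4 and 16.7 CPM, again with 7 above (1.08 ± 0.41). HRE2 had few reads, and in C18:1 CoA replicate 1 the floor of 3 reads corresponds to 8.85 CPM, a limit that covers counting error only. HSFA2 (AT2G26150), a heat stress factor that low oxygen also induces, was at 31.2, 39.1 and 51.8 CPM against 32.3, 64.8 and 133 CPM (0.62 ± 0.27). Only 5 of 9 treated libraries were above the HSFA2 controls, none of them from C18:0 CoA.

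**Figure D2:**
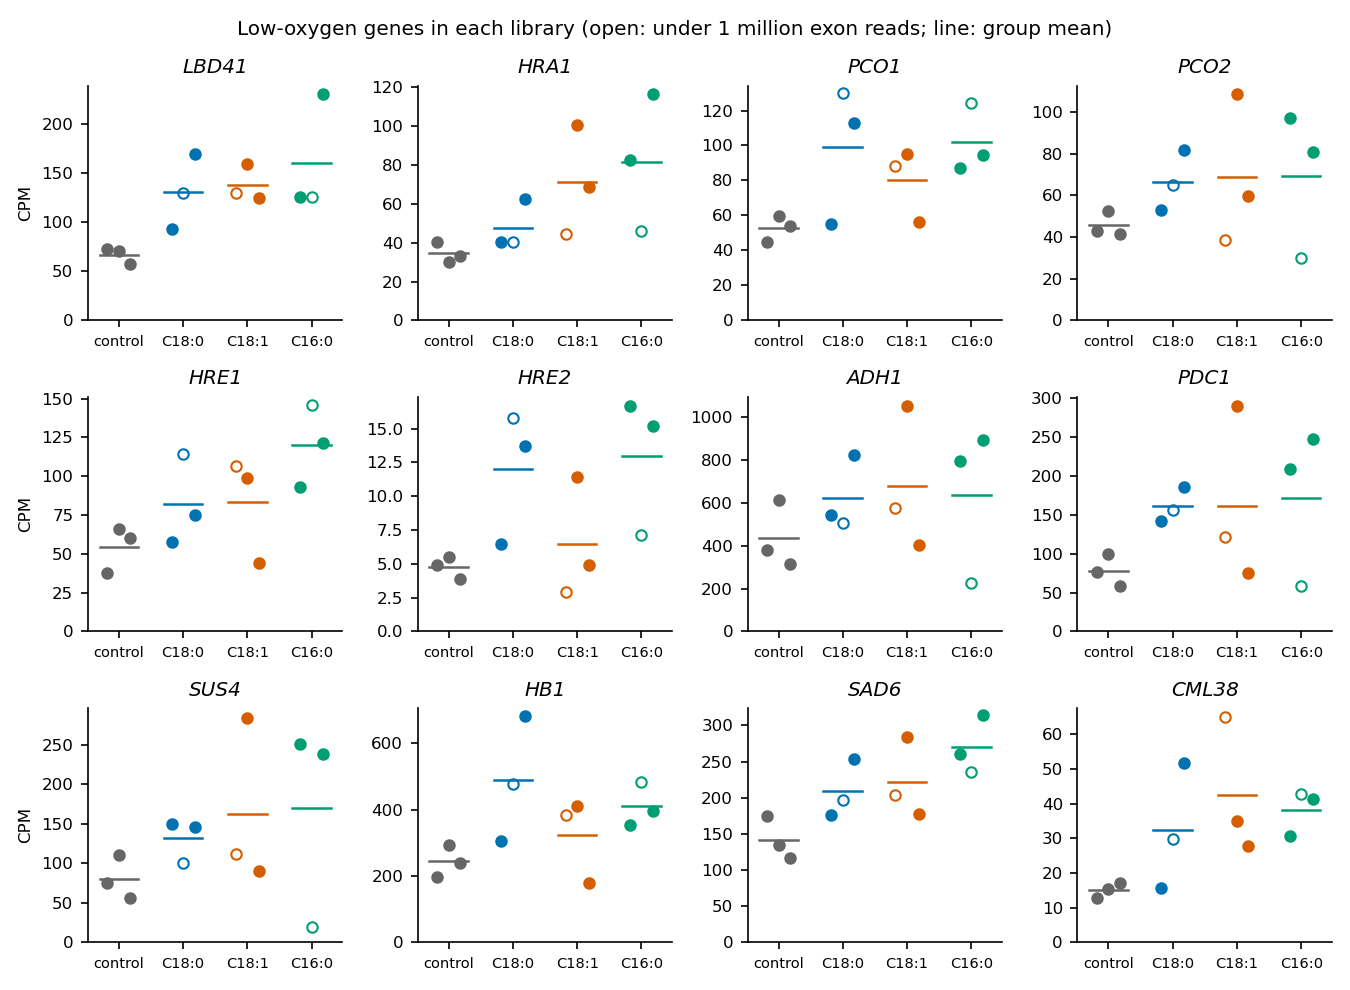
CPM of 12 low-oxygen genes in each of the 12 libraries, by group; points are libraries, lines are group means of n = 3, and open points are libraries under 1000000 exon reads. For LBD41, HRA1 and SAD6 all 9 treated points lie above the 3 control points, while the other 9 genes have treated points at or below the highest control.

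Fermentation genes showed larger spread between libraries. PDC1 (AT4G33070; chromosome 4, 15952289 to 15954771), the pyruvate decarboxylase that opens ethanol fermentation, was at 76.0, 99.2 and 57.9 CPM in control libraries against 58.6, 156 and 290 CPM (lowest, median, highest) in treated libraries. Of 9 treated libraries 7 lay above the controls, while C18:1 CoA replicate 3 (75.0) and C16:0 CoA replicate 2 (58.6) lay among them. The log2 fold change was 1.09 ± 0.37. ADH1 (AT1G77120), the alcohol dehydrogenase that ends the pathway, was at 381, 610 and 315 CPM against 226, 576 and 1051 CPM. The ADH1 groups overlapped throughout, with 4 treated libraries above and 1 below the controls, and the log2 fold change of 0.57 ± 0.34 had an interval of -0.13 to 1.27. Under the lane block the log2 fold change was 0.012 for ADH1 and 0.41 for PDC1, and with single libraries left out the ADH1 value ran from 0.39 to 0.89.

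SUS4 (AT3G43190), a sucrose synthase that feeds sugar into glycolysis, was at 75.0, 111 and 56.4 CPM against 19.5, 146 and 283 CPM, with 6 treated libraries above and 1 below the controls (0.95 ± 0.44). Its lowest value was in C16:0 CoA replicate 2, a shallow library, and under the lane block the log2 fold change was 0.31. Of the 7 measured genes of fermentation and sugar breakdown 2 were higher at an unadjusted p under 0.05, and the median was 0.46.

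Signalling, redox and transport genes split into a group that stood higher and a group near 0. Of 12 measured 6 were higher at an unadjusted p under 0.05, with a median of 0.45. CML38 (AT1G76650), a calmodulin-like protein of stress granules, was at 12.8, 15.4 and 17.0 CPM in control libraries against 15.6, 34.9 and 64.9 CPM (lowest, median, highest) in treated libraries. All but C18:0 CoA replicate 1 lay above the controls, and the log2 fold change was 1.26 ± 0.33. SAD6 (AT1G43800; chromosome 1, 16577610 to 16579722), a stearoyl-ACP desaturase family gene that belongs to the low-oxygen core, was at 175, 135 and 117 CPM against 176, 236 and 314 CPM. The SAD6 groups did not overlap, although C18:0 CoA replicate 1 only just exceeded control replicate 1 (0.71 ± 0.19).

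HB1 (AT2G16060), a non-symbiotic haemoglobin that removes nitric oxide, stood at 197, 294 and 240 CPM against 180, 395 and 681 CPM, with 8 treated libraries above the controls and C18:1 CoA replicate 3 below them (0.72 ± 0.25). The ACC oxidase gene AT2G19590, which makes ethylene, was at 115, 113 and 135 CPM against 125, 190 and 235 CPM, with 8 of 9 above (0.62 ± 0.19). NIP2-1, an aquaporin-family channel known to carry lactic acid, was at 5.39, 8.72 and 5.41 CPM against 0, 19.1 and 46.0 CPM (1.82 ± 0.61). RBOHD, a respiratory burst oxidase, and the ethylene receptor gene ETR2 had log2 fold changes of -0.04 ± 0.28 and -0.17 ± 0.26. The ACC oxidase gene, NIP2-1, RBOHD and ETR2 were chosen after their values were seen.

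Among 22 measured genes of less known function 12 were higher at an unadjusted p under 0.05, and 3 of them had all 9 treated libraries above control. AT2G14247 was at 6.98, 7.10 and 3.09 CPM in control libraries against 7.81, 23.8 and 27.8 CPM (lowest, median, highest) in treated libraries, a log2 fold change of 1.61 ± 0.41. AT4G10270, annotated as a wound-responsive family protein, was at 26.3, 28.2 and 23.2 CPM against 32.2, 45.7 and 89.1 CPM (1.03 ± 0.28). Neither gene's groups overlapped. AT4G24110 was at 26.2, 30.8 and 17.8 CPM against 30.1, 52.7 and 73.3 CPM, with 1 treated library inside the control range (1.01 ± 0.24). AT2G17850, whose promoter is shown above, was at 16.3, 14.0 and 11.6 CPM against 0, 42.1 and 70.8 CPM, with 7 treated libraries above and 1 below the controls (1.42 ± 0.49).

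The list's level per library, the median over its members of the log2 level against the control mean, ran from -0.05 to 0.12 in the control and from 0.10 over a median of 0.50 to 0.89 in treated libraries. Of the 9 treated libraries 8 lay above all controls. The lowest value (0.10) was in C18:1 CoA replicate 3, the next (0.14) in C16:0 CoA replicate 2 and the next (0.21) in C18:0 CoA replicate 1, so each compound had 1 library near the control. The 3 highest, at 0.89, 0.85 and 0.84, also came from 1 library of each compound. Summed over members, the list took 3159 to 3783 CPM in control and 3528 to 6388 CPM in treated libraries.

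**Figure D3:**
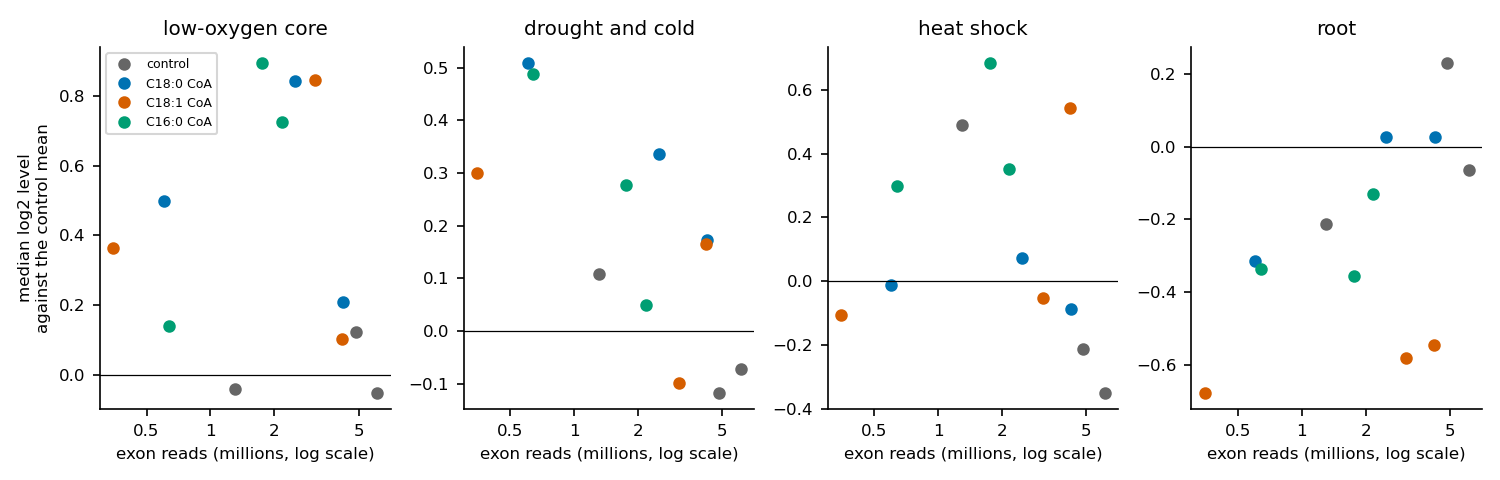
Median log2 level of 4 gene lists against the control mean, by library, plotted over the library's exon reads on a log scale; each point is 1 library. For the low-oxygen list 8 of 9 treated libraries lie above the 3 controls, with 3 treated libraries at 0.10 to 0.21, and for the root list 6 lie below the controls.

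Where a treated and a control library shared a lane, the low-oxygen median difference was 0.20 in lane 1 (C18:1 CoA replicate 3), 0.67 in lane 2 (C16:0 CoA replicate 1) and 0.13 in lane 3 (C16:0 CoA replicate 2). A fit with lane as a block, whose treated-minus-control estimate rests on those 3 lanes, gave a median of 0.32 and 14 of 49 genes higher at an unadjusted p under 0.05, in place of 0.60 and 27. Without the 3 shallow libraries the median was 0.64 with 33 of 49 higher. Among libraries with the i7 index of the controls, which leave out all C16:0 CoA libraries and C18:1 CoA replicate 3, the median was 0.67 with 31 higher. Without control replicate 1 the median was 0.54 and 16 of 49 were higher. With the length trend of each library removed the median was 0.62 and 27 were higher. In the same order of fits, 584, 1033, 783, 302 and 353 of 17036 genes tested had an unadjusted p under 0.05 in either direction.

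The other ERF-VII factors and oxidases were listed apart with the N-degron pathway that degrades these factors, a list of 10 genes that leaves out HRE1, HRE2, PCO1 and PCO2, described above. RAP2.12 (AT1G53910), the ERF-VII factor held at the membrane, was at 212, 203 and 224 CPM in control libraries against 177, 211 and 256 CPM (lowest, median, highest) in treated libraries. The groups overlapped fully, and the log2 fold change of 0.02 ± 0.14 had an interval of -0.28 to 0.33. Of the 10 genes 0 differed at an unadjusted p under 0.05 in edgeR, against 2.49% of all genes, and the median was 0.03. In a list of 10 a count of 0 is near that background and is no result about the list. PRT6, the ubiquitin ligase of that pathway, had the smallest p (-0.26 ± 0.17), followed by MED25, a Mediator subunit (-0.17 ± 0.22), and the arginyl transferases ATE1 (-0.12 ± 0.23) and ATE2 (-0.12 ± 0.24).

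ACBP1 (AT5G53470) was at 17.6, 15.2 and 20.9 CPM in control libraries against 0, 14.7 and 28.1 CPM (lowest, median, highest) in treated libraries, the 0 being in the shallowest library. ACBP2 (AT4G27780) was at 20.0, 17.4 and 17.0 CPM against 3.55, 21.8 and 24.8 CPM. Both overlapped the control, with log2 fold changes of -0.20 (interval -0.88 to 0.48) and 0.11 (interval -0.51 to 0.73). A p that misses the threshold does not show that these levels were equal.

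Genes that handle acyl-CoAs, in 4 lists, held no member past an unadjusted p of 0.05 in edgeR, against 2.49% of all genes, a background so low that a count of 0 in lists of 14 to 18 genes is no result about them. The 14 genes of acyl-CoA binding and activation had a median log2 fold change of -0.20, with 3 positive. Its median was -0.04 without control replicate 2, -0.07 with the length trend removed and -0.09 without all C18:1 CoA libraries. The smallest p values there were those of the long-chain acyl-CoA synthetases LACS7 (-0.33 ± 0.19), LACS1 (-0.21 ± 0.17), LACS9 (-0.22 ± 0.20) and LACS3 (-0.34 ± 0.31). The 17 genes of acyl-CoA breakdown, mainly peroxisomal beta-oxidation, had a median of -0.18 with 6 positive. Its median was -0.08 when control replicate 2 was left out, and -0.11 when replicate 1 of C18:0 CoA was. ACX1, an acyl-CoA oxidase for long chains, was at 189, 183 and 198 CPM in control libraries against 117, 165 and 196 CPM (lowest, median, highest) in treated libraries. Of the 9 ACX1 values 8 were below the controls (-0.25 ± 0.15).

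ACX3, the medium-chain oxidase, SDP1, a lipase that releases stored fatty acids, and AIM1, a multifunctional beta-oxidation protein, had log2 fold changes of -0.30 ± 0.18, -0.27 ± 0.18 and -0.25 ± 0.18. The 15 genes that use acyl-CoAs in elongation and esterification had a median of -0.01, with CER10, KCS2, KCS9 and LPCAT2 between -0.21 and 0.13. The 18 genes of fatty acid synthesis and desaturation had a median of -0.03, with FATA, which releases oleate in the plastid, at 0.32 ± 0.21 and FATB, which releases palmitate, at -0.27 ± 0.18. Exon lengths of the breakdown list had a median of 2375 bases against 1591 for all genes, and with the length trend of each library removed its median was -0.0008.

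**Figure D4:**
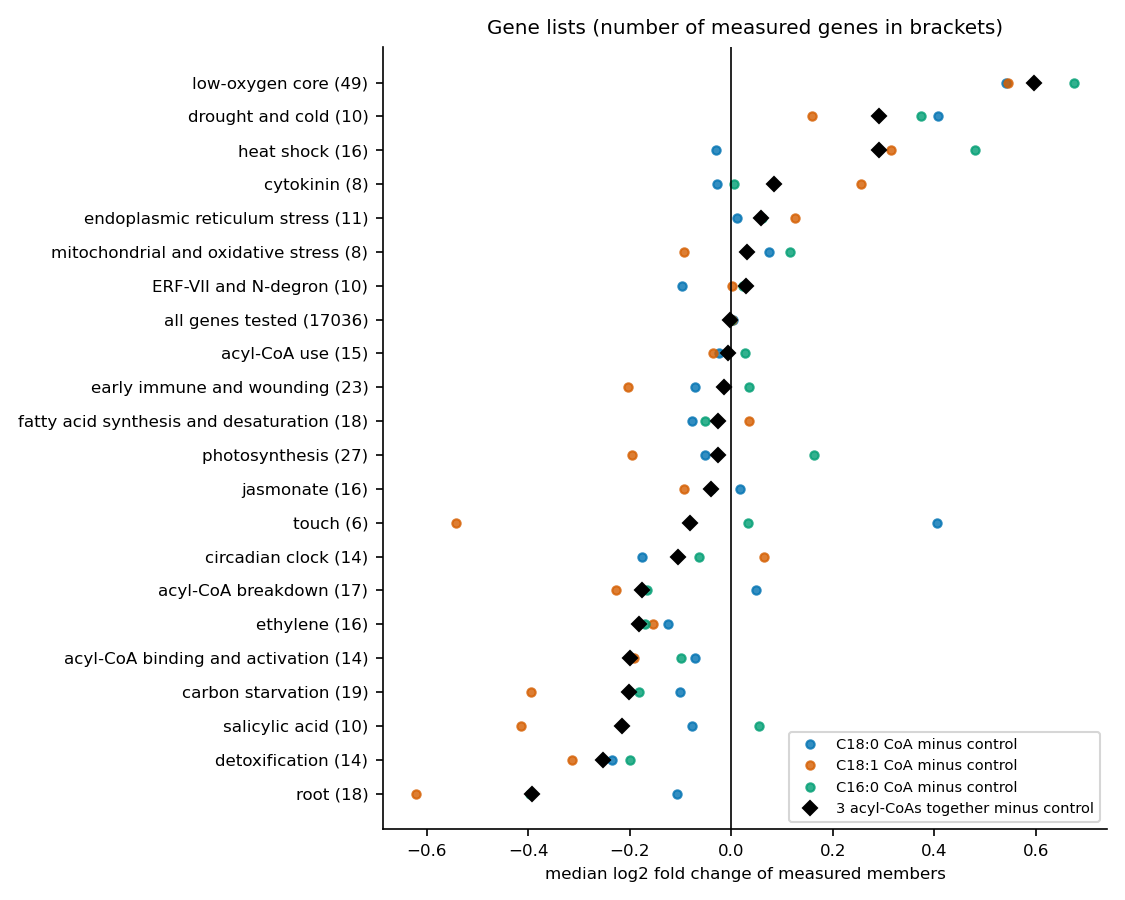
Median log2 fold change of the measured members of each gene list with at least 6 measured genes, for the 3 acyl-CoAs together (diamonds) and for each compound (circles), all against the same 3 control libraries. The low-oxygen list is at 0.60 together and the root list at -0.39, with all genes tested at -0.00.

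Root genes stood lower in the pooled contrast, with C18:0 CoA closest to the control. Of 18 measured 15 had a negative log2 fold change and 5 were lower at an unadjusted p under 0.05, against 1.15% of all genes, with a median of -0.39. By compound the median was -0.11 with C18:0 CoA, -0.62 with C18:1 CoA and -0.40 with C16:0 CoA, with 0, 5 and 2 genes lower at that p (0.657%, 1.27% and 1.29% of all genes). The C18:0 CoA libraries stood at 0.03, -0.32 and 0.03 against the control mean, inside the control range of -0.21 to 0.23 but for replicate 2. In bulk tissue fewer cells of a type and less RNA per cell cannot be told apart. PRP1 (AT1G54970), a proline-rich root cell wall protein, was at 40.1, 44.6 and 43.3 CPM in control libraries against 17.8, 25.8 and 48.0 CPM (lowest, median, highest) in treated libraries (-0.61 ± 0.18). Its C18:0 CoA libraries, at 48.0, 38.6 and 42.0 CPM, lay around the control and the other 6 lay below it.

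RHS12 (AT3G10710), a root hair pectin methylesterase, was at 16.7, 19.1 and 17.0 CPM against 5.55, 10.5 and 16.0 CPM, with no overlap (-0.71 ± 0.26). COBL9, a root hair growth gene named after its values were seen, was at 17.3, 16.0 and 14.7 CPM against 0, 9.59 and 11.9 CPM, also with no overlap (-0.83 ± 0.37). PRP3 (-0.51 ± 0.19) and the cell wall extensin gene LRX1 (-0.64 ± 0.28) were lower too, LRX1 with a control replicate 2 of 42.4 CPM above all 11 other libraries. Without control replicate 2 1 of the 18 root genes had an unadjusted p under 0.05, against 265 of 17036 genes tested. Summed over the list, root genes took 578 to 836 CPM in control and 467 to 690 CPM in treated libraries, and photosynthesis genes 18136 to 22546 and 11947 to 39307 CPM, and the part of tissue make-up in these values was not tested. Photosynthesis genes, the shoot markers, had a pooled median of -0.03 with 1 of 27 lower (1.15% of all genes). That gene was GAPA, a chloroplast glyceraldehyde-3-phosphate dehydrogenase, at 478, 375 and 439 CPM against 230, 300 and 401 CPM (-0.46 ± 0.17). The photosynthesis median was -0.05 with C18:0 CoA, -0.20 with C18:1 CoA and 0.16 with C16:0 CoA, with 11, 2 and 19 of 27 positive. Treated libraries ran from -0.79 (C18:1 CoA replicate 2) to 0.81 (C16:0 CoA replicate 2, a shallow library) against the control mean, and control libraries from -0.19 to 0.13.

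Drought and cold genes had a median of 0.29 with 2 of 10 higher at an unadjusted p under 0.05, against 1.34% of all genes. KIN2, a cold and abscisic acid responsive gene, was at 96.3, 101 and 153 CPM in control libraries against 131, 235 and 611 CPM (lowest, median, highest) in treated libraries, 7 of them above the controls (1.12 ± 0.36). The dehydrin gene ERD10 was at 839, 897 and 937 CPM against 921, 1182 and 1444 CPM, with 8 above (0.38 ± 0.14). COR47 and RD29A, also of this class, were at 0.34 ± 0.16 and 0.23 ± 0.17. The 3 shallow libraries had 3 of the 4 highest values of the list (0.30 to 0.51), and without these libraries its median was 0.16.

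Heat shock genes had the same median, 0.29, but the control libraries alone ran from -0.35 to 0.49 and only 2 treated libraries lay above them. HSFA2, described above, was the 1 of 16 past an unadjusted p of 0.05 in the pooled contrast (2.49% of all genes). MBF1C, a heat-induced co-activator, was at 0.76 ± 0.41, AT5G12030, a small heat shock protein gene, at 1.10 ± 0.63 and FES1A at 0.34 ± 0.21. The heat shock median was -0.03 with C18:0 CoA, 0.31 with C18:1 CoA and 0.48 with C16:0 CoA, with 5, 13 and 16 of 16 positive. At that p 0, 1 and 5 were higher (1.23%, 0.722% and 2.74% of all genes). Between C18:0 and C16:0 CoA 5 of 16 differed (2.11%), between C18:1 and C18:0 CoA 2 (2.64%) and between C18:1 and C16:0 CoA 1 (2.84%). Early immune and wounding genes had a median of -0.01, with 2 of 23 lower, against 1.15% of all genes: CYP81F2, a P450 of indole glucosinolate synthesis (-0.56 ± 0.18), and WRKY33, a defence transcription factor (-0.56 ± 0.22). WRKY33 was at 82.3, 90.0 and 62.6 CPM against 31.6, 48.5 and 82.8 CPM, with 7 of 9 below the controls. MYB51 (-0.43 ± 0.22) and the kinase gene MPK3 (-0.32 ± 0.17) each had 8 of 9 treated libraries below the controls. By compound 4 of the 23 were lower with C18:1 CoA (1.27% of all genes), 3 were higher with C16:0 CoA (2.74%) and 0 differed with C18:0 CoA.

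Of 16 jasmonate genes 2 were higher (1.34% of all genes) and 1 lower (1.15%), counts too small to set apart from that background. VSP1, a vegetative storage protein gene, had the largest value at 2.83 ± 0.80, but on few reads: 0.159, 0.406 and 0.772 CPM in the control and 1.13, 2.16 and 7.10 CPM (lowest, median, highest) in treated libraries. No VSP1 value overlapped between the groups, and all control values lie under the 3-read floor of their libraries, so the fold is not a bound. CYP94C1, which oxidises the active hormone, was at 0.63 ± 0.27, and MYC2, the central transcription factor, at -0.38 ± 0.17 with 7 of 9 below the controls. Touch genes (6 measured, median -0.08) included CML38, shared with the low-oxygen list, and TCH2 at 0.68 ± 0.32, beside TCH4 at -0.37 ± 0.26, XTH17 at -0.23 ± 0.27, TCH3 at -0.17 ± 0.25 and XTH18 at 0.01 ± 0.19. The touch median was 0.41 with C18:0 CoA, where all 6 were positive, -0.54 with C18:1 CoA and 0.03 with C16:0 CoA.

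Salicylic acid genes (10 measured, median -0.21, 1 lower against 1.15% of all genes) included PR1 at -2.23 ± 0.89, which rests on control replicate 2: its values were 1.27, 20.5 and 0 CPM in the control and 0, 1.23 and 9.29 CPM (lowest, median, highest) in treated libraries. Without that library the PR1 estimate was 0.82 and the list's median was 0.18, while without control replicate 1 the median was -0.34. The same library set the estimates of AT5G42530 (9.67, 153 and 17.0 CPM in the control, -2.11 ± 0.57, 0.21 without it) and AT2G25510 (17.3, 179 and 11.6 CPM, -2.12 ± 0.65, 0.14 without it).

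The other lists had medians of -0.18 (ethylene, 16 genes), -0.20 (carbon starvation, 19), -0.25 (detoxification, 14), -0.11 (circadian clock, 14), 0.08 (cytokinin, 8), 0.06 (endoplasmic reticulum stress, 11) and 0.03 (mitochondrial and oxidative stress, 8). Without control replicate 2 the carbon starvation and detoxification medians were -0.09 each, and without control replicate 1 the carbon starvation median was -0.32. At an unadjusted p under 0.05 these lists held 3 of 90 genes, near the 2.49% of all genes. BCAT2, which breaks down branched-chain amino acids, was at 42.3, 77.9 and 58.7 CPM in control libraries against 21.3, 40.5 and 68.4 CPM (lowest, median, highest) in treated libraries (-0.59 ± 0.26). AOX1A, the mitochondrial alternative oxidase, was at 53.6, 64.7 and 57.9 CPM against 33.8, 42.6 and 54.5 CPM, with 8 of 9 below (-0.40 ± 0.17). GSTF2, a glutathione transferase, was at 740, 924 and 1012 CPM against 373, 608 and 921 CPM (-0.59 ± 0.19).

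Outside the lists, the higher genes with the smallest p included AT1G66080, a hikeshi-like protein, at 15.1, 17.8 and 14.7 CPM against 22.8, 29.3 and 44.4 CPM (0.92 ± 0.24), RTM3, which restricts movement of a plant virus and had few reads (2.06 ± 0.59), and AT5G35940, a mannose-binding lectin family gene (0.82 ± 0.24). PRN, described below by compound, was also among the 12 higher genes of smallest p, with a pooled log2 fold change of 0.95. AT1G66080 and RTM3 did not overlap between groups. The lower genes with the smallest p included AT3G49960, a peroxidase, at 82.1, 116 and 95 CPM in the control and 45.4, 62.6 and 79.7 CPM (lowest, median, highest) in treated libraries (-0.66 ± 0.17), and ERD1, a chloroplast Clp ATPase, at 331, 332 and 360 CPM against 192, 234 and 284 CPM (-0.53 ± 0.15). Neither overlapped. AT2G22660 also lay apart (-0.47 ± 0.15), while CAT3, a catalase (-0.50 ± 0.16), AT5G59540 (-0.69 ± 0.19), AT5G52750 (-0.88 ± 0.24), CML41 (-1.04 ± 0.33) and ADC2, an arginine decarboxylase of polyamine synthesis (-0.72 ± 0.22), overlapped in 1 to 7 libraries.

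The 3 compounds were compared with each other at the same dose and time, in 3 pairs. In a test of any difference among them 0 genes passed by edgeR (0.0%), with 325 at an unadjusted p under 0.05 (1.91%). Adjusted over genes and pairs together, 0 of 51108 tests passed (0.0%). At an unadjusted p under 0.05, 450 genes (2.64%) differed between C18:1 and C18:0 CoA, which differ by the double bond, 360 (2.11%) between C18:0 and C16:0 CoA, which differ in chain length, and 483 (2.84%) between C18:1 and C16:0 CoA, which differ in both. DESeq2 called 2 genes among the compounds, PRN and AT5G48430, and the latter, named after its values were seen, also in 1 pair.

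Against the shared control libraries, each compound alone also gave 0 genes past the edgeR test (0.0% each). At an unadjusted p under 0.05 C18:0 CoA had 209 higher (1.23%) and 112 lower (0.657%), C18:1 CoA 123 (0.722%) and 216 (1.27%), and C16:0 CoA 466 (2.74%) and 220 (1.29%). Of the 49 low-oxygen genes 18, 15 and 25 were higher at that p with C18:0, C18:1 and C16:0 CoA, with medians of 0.54, 0.55 and 0.68. Since the control libraries are shared by these comparisons, the values are not independent of each other. The C16:0 CoA libraries all carried the i7 index that no control had, so compound and index cannot be told apart for it.

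**Figure D5:**
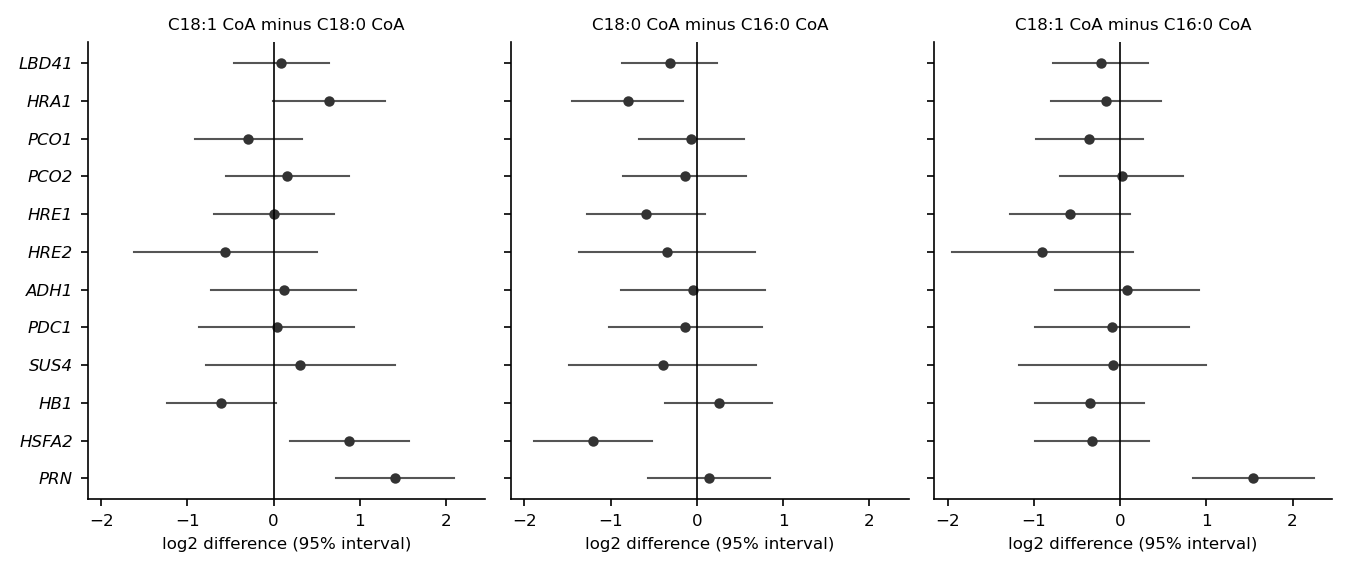
Log2 difference and its 95% interval between each pair of acyl-CoAs for 10 low-oxygen hallmark genes, HSFA2 and PRN. For the hallmark genes the intervals include 0 except HRA1 in C18:0 minus C16:0 CoA, and PRN lies above 0 in both pairs with C18:1 CoA.

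Within the low-oxygen list the median pair difference was 0.02 for C18:1 minus C18:0 CoA, -0.18 for C18:0 minus C16:0 CoA and -0.15 for C18:1 minus C16:0 CoA. At an unadjusted p under 0.05 there were 2, 2 and 1 of 49 genes (2.64%, 2.11% and 2.84% of all genes), counts too small to set apart from that background. ADH1 differed by 0.12 (95% interval -0.72 to 0.95), -0.04 (-0.87 to 0.80) and 0.08 (-0.76 to 0.91) in those pairs. PDC1 differed by 0.04 (-0.86 to 0.93), -0.13 (-1.02 to 0.76) and -0.10 (-0.99 to 0.80). LBD41 differed by 0.09 (-0.46 to 0.64), -0.31 (-0.86 to 0.24) and -0.22 (-0.78 to 0.33). The LBD41 intervals still allow differences of -0.86 to 0.64, and a p that misses the threshold does not show that the compounds act alike.

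HRA1 was lower with C18:0 than with C16:0 CoA by a log2 difference of -0.80 (-1.45 to -0.16, adjusted p = 1.00). HSFA2 was lower with C18:0 than with C16:0 CoA by -1.21 (-1.89 to -0.52, adjusted p = 1.00) and higher with C18:1 than with C18:0 CoA by 0.88 (0.19 to 1.57). PRN, a pirin gene, had the smallest p among the compounds of the genes named here (adjusted p = 1.00 in edgeR and 0.0337 in DESeq2). It was at 35.5, 38.5 and 45.6 CPM in the control, at 47.1, 68.4 and 59.0 with C18:0 CoA, at 266, 103 and 116 with C18:1 CoA and at 44.1, 79.9 and 39.5 with C16:0 CoA. All 3 C18:1 CoA libraries were above the other 9, and the difference was 1.41 (0.72 to 2.09) from C18:0 CoA and 1.55 (0.85 to 2.25) from C16:0 CoA.

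CYP81F2 went the other way, at 17.7, 16.4 and 22.3 CPM with C18:1 CoA against 36.9 to 55 CPM in the other 6 treated libraries, a log2 difference of -1.15 (-1.68 to -0.61) from C18:0 CoA and -1.10 (-1.65 to -0.55) from C16:0 CoA. PRP1 was higher with C18:0 CoA, at 38.6 to 48.0 CPM, than with C16:0 CoA, at 17.8 to 20.9 CPM (1.14, 0.63 to 1.65). None of these pair differences passed the adjusted test (adjusted p = 1.00 each), and the p of a single pair is unadjusted in what follows. Of the 23 immune genes 3 had a p under 0.05 between C18:1 and C18:0 CoA (2.64% of all genes), 3 between C18:0 and C16:0 CoA (2.11%) and 5 between C18:1 and C16:0 CoA (2.84%). Of the 18 root genes 4, 1 and 0 did in the same pairs.

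In the authors' deposited table, which tests proportions of reads with Baggerley's test, an FDR-corrected p under 0.05 was given to 5 of the 10 hallmark low-oxygen genes (HB1, LBD41, HRA1, both HRE, both PCO, ADH1, PDC1 and SUS4) with C18:0 CoA, to 2 with C18:1 CoA and to 3 with C16:0 CoA. The share of all genes with such a p is not given here, so these counts have no background beside them and are no result about the hallmark genes. In the authors' deposited table LBD41 had a weighted proportions fold change of 1.79, 2.09 and 2.3 with C18:0, C18:1 and C16:0 CoA, and ADH1 one of 1.44, 1.55 and 1.44.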

How the data were processed

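The submitters' processing notes name TAIR10 as the genome build. Which aligner was used, and whether counting used strand, is not given in the sources used here. For each gene the deposited table gives whole-number counts of exon, intron and whole-gene reads. The table also holds the authors' FDR-corrected p-values and weighted proportions fold changes of Baggerley's test, per the file headers. It has 28642 named genes and 1 row without a name, which held 0 reads.

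Exon read counts were tested with edgeR 4.0.16 (quasi-likelihood test, TMM scaling, filterByExpr, R 4.3.3) in 1 fit over all 12 libraries. The contrast was the mean of the 3 compound coefficients minus control, with Benjamini-Hochberg adjustment over 17036 genes. The 3 pairs were adjusted over genes and pairs together. Intervals are 95%. DESeq2 1.42.0 and limma 3.58.1 (voom) were alternatives, among 27 settings. The fit was also run on simulated counts with planted changes larger than most seen here. That run says nothing of its power for smaller changes. P-values measure the spread between pools.

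Members and gene lists were chosen with earlier results of these data known. Of 402 list entries 11 were not paired with a gene. Named genes are 10 hallmark genes, RAP2.12, ACBP1, ACBP2, the 4 genes of smallest p in each list and the 12 of smallest p in each direction, since none passed; others are said to be chosen after their values were seen. Promoters are the 250 bases before the RefSeq start.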

Additional observations from a re-analysis of the deposited data

Results flagged for a closer look

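In 114 named genes the highest or lowest of the 9 treated libraries was compared with its neighbour, and 13 stood far from the rest (gap over range above Dixon's 95% value); chance flags about 1 in 20 groups. Of the 13, 12 were in the 3 libraries under 1000000 exon reads. The part of depth in these values was not tested.

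In C16:0 CoA replicate 2, SUS4 was lowest at 19.5 CPM (11 reads; the other 8 treated libraries 90.6 to 283 CPM), ACBP2 at 3.55 CPM (2 reads), ATE1 at 10.7 CPM (6 reads), LOX2, a jasmonate synthesis gene, at 0 CPM and EIN2, an ethylene signalling gene, at 47.9 CPM (27 reads). In the same library SDF2 and CRT1b, genes of protein folding in the endoplasmic reticulum, were highest at 288 and 570 CPM.

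In C18:1 CoA replicate 1, the shallowest library, ACBP1 was at 0 CPM, LPCAT2 at 5.9 CPM (2 reads) and SEP3 at 0 CPM, and a level of up to 8.85 CPM is allowed there by a count of 0. In C18:0 CoA replicate 2 ARR6, a cytokinin response gene, was at 7.01 CPM (4 reads) and CNX1, a calnexin gene, at 640 CPM. LRX1 in C18:1 CoA replicate 2, at 10.2 CPM (33 reads), was the 1 value outside the shallow libraries.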

How the results depend on the processing

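The absence of genes past the pooled test held in 26 of 27 settings. With only libraries that carry the control's i7 index, 1 gene was higher, AT2G17850 (log2 fold change 1.66, edgeR adjusted p = 0.0281). That fit holds no C16:0 CoA library and no C18:1 CoA replicate 3, so it does not cover all 3 compounds. In it AT2G17850 was also called with C18:1 CoA alone (log2 fold change 2.19, edgeR adjusted p = 0.00689). Genes called with each acyl-CoA alone numbered 1 with no filter, 2 with DESeq2, 1 with limma voom, 7 without the 3 shallow libraries and 0 to 1 when single libraries were left out. PRN with C18:1 CoA was called in each of those named fits. Its adjusted p was 0.00514 with no filter (edgeR), 0.000267 with DESeq2, 0.0390 with limma voom and 0.000985 without the shallow libraries (edgeR). Among the 7, HRA1 and HSFA2 were called with C16:0 CoA (edgeR adjusted p = 0.0477 each), and GSTF2 and CYP81F2 with C18:1 CoA. Genes that differed among compounds numbered 2 with DESeq2 and 1 without the shallow libraries, and 1 differed in a pair with DESeq2. Without the shallow libraries 240 genes lay above all controls, 10 of them low-oxygen genes, and 233 lay below.

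The low-oxygen median was 0.48 to 0.66 with single libraries left out and 0.32 (lane block) to 0.92 (i7 covariate) otherwise, and the causes were not tested. The i7 covariate rests on C18:1 CoA, the only group with both indices: replicate 3 against replicates 1 and 2. Low-oxygen genes at an unadjusted p under 0.05 numbered 16 to 33 with single libraries left out (16 without control replicate 1) and 14 under the lane block. Root genes numbered 1 to 6 (1 without control replicate 2), 2 without all C18:1 CoA and 3 without all C16:0 CoA libraries. Of 17036 genes tested, 265 (without control replicate 2) to 649 (without C16:0 CoA replicate 1) had such a p with single libraries left out. The lane block gave 584, and the fits without all C18:1 CoA and all C16:0 CoA libraries gave 569 and 484. The counts for both lists, and the low-oxygen count without shallow libraries, were chosen after seeing the data.

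Replicate numbers gave no sign of pairing: same-numbered libraries correlated at -0.23 to 0.23 in their deviations (18 pairs), and differently numbered ones at -0.25 to 0.21 (36 pairs). The 4 pairs of the latter that shared a lane were at 0.04 to 0.20. A replicate block gave a low-oxygen median of 0.57, with 23 low-oxygen and 4 root genes at an unadjusted p under 0.05. In that fit 376 of 17036 genes tested had such a p in either direction.

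Of 3078 values for 114 named genes 44 changed sign. With no filter the value for CRC was -0.053. With DESeq2 the value for CRC was -0.39. Under the replicate block the value for CRC was -0.21. Without the shallow libraries values that changed sign were KCS9 0.0022 and CRC -0.61. With the length trend removed values that changed sign were PRT6 0.033 and CAT2 0.046. With the i7 covariate values that changed sign were RAP2.12 -0.083, KCS2 0.34, EDS1 0.010 and PR2 1.88. Under the lane block values that changed sign were ACBP1 0.0090, ACBP2 -0.24, LHCB5 0.044, CRC -0.39, ARR7 -0.012, ARR6 -0.023 and ARR9 -0.093. With only the i7 index of the controls values that changed sign were RAP2.12 -0.0032, MED25 0.024, ATE1 0.033, KCS2 0.0073 and KCS9 0.035. Without all C18:0 CoA libraries values that changed sign were RAP2.12 -0.027 and CRC -1.60. Without all C16:0 CoA libraries values that changed sign were ATE1 0.0091 and KCS9 0.018. With whole-gene reads the value for CRC was -0.0030. With single libraries left out the ranges were CRC -1.53 to 0.95, RAP2.12 -0.010 to 0.060, AT5G42530 -2.62 to 0.21, AT2G25510 -2.96 to 0.14, MED25 -0.34 to 0.12, PR1 -2.81 to 0.82, ARR9 -0.027 to 0.40, CAT2 -0.24 to 0.0080, GSTF7 -0.77 to 0.25 and LPCAT2 -0.033 to 0.36.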

Other observations

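Of the 81 genes in which all 9 treated libraries lay above control, 13 (16.0%) encode ribosomal proteins, against 318 of 17036 genes tested (1.87%), and 0 of the 74 below do. Their log2 fold changes were 0.20 to 0.60 with a median of 0.31. The genes above had a median exon length of 941 bases and those below one of 2121 bases, against 1591 bases over all genes. Median log2 fold changes over sixths of the genes by exon length were 0.16, 0.07, 0.01, -0.01, -0.05 and -0.13 from short to long. With the length trend of each library removed the 13 ribosomal protein genes had log2 fold changes of 0.13 to 0.50 with a median of 0.24. These sets were described after their values were seen.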
